A study of Felis catus with 3 samples.

Results

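Zinc finger proteins hold a zinc ion in a small fold of the chain, and in the classical (C2H2) kind a row of such fingers reads DNA base by base. They are the most numerous family of transcription factors in mammals. Side domains set what a protein does once bound: KRAB domains recruit a silencing complex, BTB domains pair proteins and recruit corepressors, and SCAN domains pair proteins with each other. Krüppel-like factors (KLF) bind GC-rich promoter elements, and GLI proteins carry the Hedgehog signal to its target genes. In fat-derived stromal cells such factors take part in keeping cells uncommitted or steering them toward fat, bone or cartilage.

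The genes described here are 28 of the 21529 genes measured. They were taken by symbol from the gene table published with the study, as every symbol that began with ZNF, ZBTB, ZSCAN, ZKSCAN, ZFP or ZFHX or was KLF or GLI followed by a digit. Of them 18 were ZNF genes, 4 ZBTB, 3 ZSCAN, 2 KLF and 1 GLI. Only 1997 rows of that table were read, 1811 of them with a symbol, and its other rows were not analysed here. The 28 are therefore the genes of these rows that met the rule, not the whole family, and the rows read held no ZKSCAN, ZFP or ZFHX symbol. Every mention of genes with a symbol refers to these rows. A symbol is not a function, and 2 of the 28 are not classical DNA-binding zinc finger proteins. ZBTB8OS is named for lying opposite ZBTB8 and encodes archease, a cofactor of the tRNA-splicing ligase. ZNFX1 is a helicase that senses viral RNA and carries zinc fingers of another kind. No sequences of these genes were used here.

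RNA was sequenced from 3 primary cultures of feline adipose-derived mesenchymal stem cells (ASCs), each from the fat of a different cat and each as 1 library. All 3 belonged to a single group, untreated and noninduced, grown in MEMα with fetal bovine serum and harvested at passages 3 to 4 by the labels, or at passage 3 by the description of the study's gene table. They are called Feline ASC 1, 2 and 3 (Gray_Boy, Luna and SPF2 in the labels). The labels give no age, sex or strain of the cats. Values are FPKM, in which the fragments of a gene are divided by the length of its transcript and by the size of the library, so levels of different genes can be set side by side. With 1 library per culture and a single condition no test was possible, and spread is the SD over the 3 cultures.

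The summed FPKM ran from 621797 to 688297 and was highest in Feline ASC 2. FPKM are not counts. The ratio between cultures of the FPKM that a single fragment adds was searched for in genes under 0.15 FPKM. It came to 0.911 for Feline ASC 1 over 2, 1.28 for ASC 1 over 3 and 1.41 for ASC 2 over 3. Within a tolerance of 1% these ratios matched 59.3%, 31.1% and 25.5% of the low genes compared, so the estimates involving Feline ASC 3 are weak, and how many fragments lie behind a value is not known. The labelled cell type could be checked with few markers. Of 8 stromal markers only ENG (endoglin, CD105) was in the rows read, and the other 7 were not analysed here. ENG had 72.5, 117 and 73.9 FPKM in Feline ASC 1, 2 and 3. Of 9 leukocyte markers found, CD37 was at 5.03 to 7.70 FPKM, 6 had values above 0 that did not pass 1.03 FPKM in any culture, and CD2 and CD1C were listed at 0 throughout. The summed level of these 9 was 9.60, 8.86 and 6.22 FPKM.

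Most of the zinc finger genes were expressed, and most at a low to middle level. In all 3 cultures 23 of 28 (82.1%) were at 1 FPKM or more, against 49.6% of all genes and 61.3% of the genes with a symbol. At 15 FPKM or more in every culture there were 6 (21.4%), against 22.1% of all genes and 30.4% of those with a symbol. Without ZBTB8OS and ZNFX1, which are not classical DNA-binding zinc finger proteins, 4 were left. None of the 28 reached 100 FPKM in all cultures, a level held by 3.59% of all genes. The median of the 28 was 3.98 FPKM (mean of the 3 cultures), and by culture it was 3.62, 5.14 and 3.79 FPKM. Over all genes the median was 1.57 FPKM and over genes with a symbol 5.68 FPKM. The median over all genes is lowered by the 29.0% of them at 0 in every culture. Among genes with a mean of at least 1 FPKM the zinc finger genes lay lower, with a median of 5.16 FPKM. There the median was 13.9 FPKM over all genes and 16.4 FPKM over genes with a symbol. Together the 28 genes held 0.0389%, 0.0374% and 0.0370% of the summed FPKM of Feline ASC 1, 2 and 3.

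**Figure D1:**
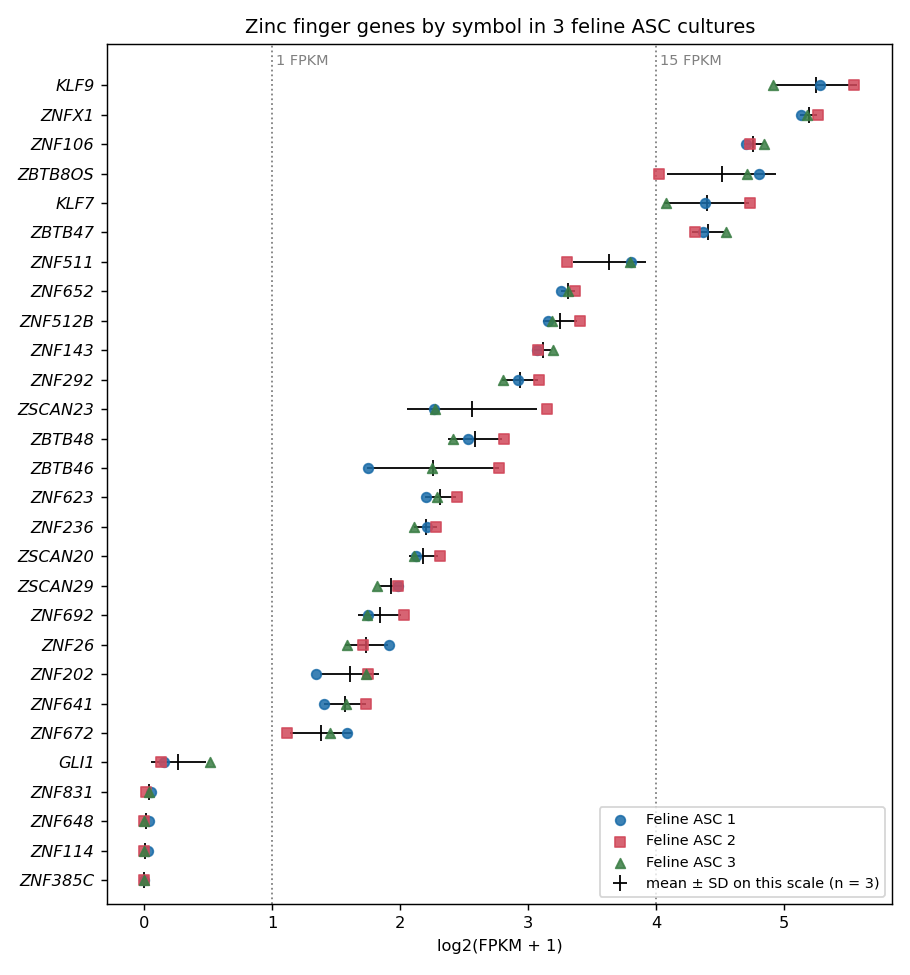
Level of each of the 28 genes in each culture, as log2(FPKM + 1), ordered by mean FPKM; coloured symbols are single libraries, and the black tick and bar are the mean and SD of the 3 cultures on this scale. The dotted lines mark 1 and 15 FPKM, and 6 genes lie above 15 FPKM in every culture while 5 lie below 1 FPKM in every culture.

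The levels were also set beside those of other genes, as a description. A list of 65 factors of other families with a symbol, among them HOX, FOX, SOX, PAX, NFI and STAT genes, had 29 (44.6%) at 1 FPKM or more in every culture and 14 (21.5%) listed at 0 throughout. Of the zinc finger genes 1 (3.57%) was listed at 0 throughout. At the other end, the other factors reached 108 FPKM (mean of the cultures), whereas the zinc finger genes reached 37.6 FPKM. A second list, of 17 zinc finger genes with other symbols such as ZFR, ZBED5 and SALL4, lay nearer, with 12 (70.6%) at 1 FPKM in every culture, none at 0 throughout and a median of 5.92 FPKM. No test was made of these differences, since genes of one library are not replicates.

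**Figure D2:**
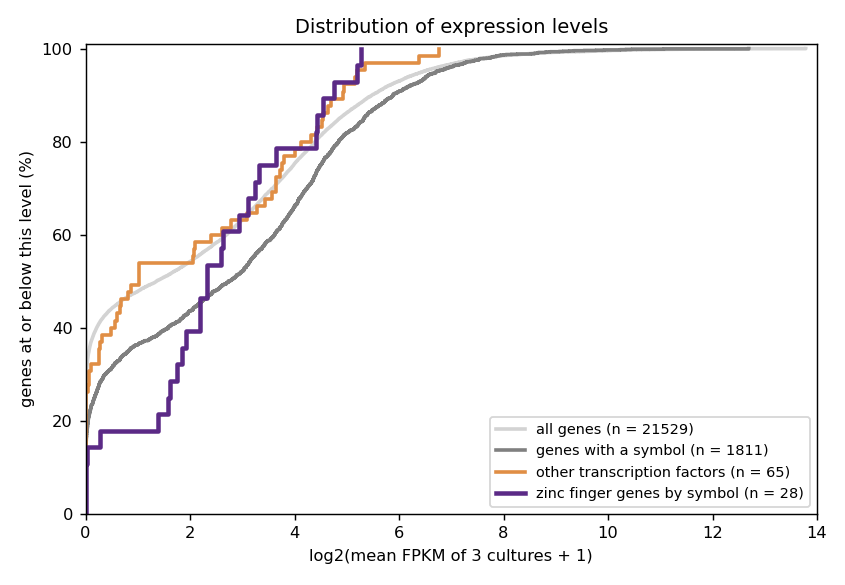
Share of genes at or below each level, against log2 of the mean FPKM of the 3 cultures plus 1, for all 21529 genes, the 1811 with a symbol, 65 transcription factors of other families and the 28 zinc finger genes. The zinc finger curve starts lowest, with 1 of 28 genes at 0, climbs steeply through the low to middle levels and ends at 37.6 FPKM, below the ends of the other curves.

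Of the Krüppel-like factors, 1 led the 28 genes and the other ranked below ZNFX1, ZNF106 and ZBTB8OS. KLF9 (ENSFCAG00000000110, chromosome D4, 12814271 to 12837141 of the cat assembly Felis Catus 8.0, as the table gives them), a factor induced by glucocorticoid and thyroid hormone, had 38.0, 45.8 and 29.1 FPKM in Feline ASC 1, 2 and 3. Its mean of 37.6 ± 8.3 FPKM (SD, n = 3) was the highest of the 28 and lay above 88.4% of all genes measured. KLF7 (ENSFCAG00000002514, chromosome C1, 192453296 to 192539007), known to hold back adipocyte differentiation, had 19.8, 25.6 and 15.9 FPKM, a mean of 20.4 ± 4.9 FPKM. Both were highest in Feline ASC 2 and lowest in Feline ASC 3. The ratio of KLF7 to KLF9 was steady, at 0.522, 0.559 and 0.544 in the 3 cultures, although each gene varied with an SD of 22.2 to 24.1% of its mean. This ratio was formed after the values had been seen. The other KLF genes lay outside the rows read and were not analysed here.

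The pair that are no classical DNA-binding factors were also among the highest, both with means above that of KLF7. ZNFX1 had 34.1, 37.4 and 35.3 FPKM, a mean of 35.6 ± 1.7 FPKM, and was among the steadiest members. It was above KLF9 in Feline ASC 3 and below it in the other 2 cultures, so the order of these leading genes is not resolved. From the fixed list of RNA-sensing genes, DDX58 (RIG-I) had 8.11, 5.31 and 6.93 FPKM and ADAR, which edits double-stranded RNA, had 60.0, 55.2 and 58.2 FPKM. ZBTB8OS (ENSFCAG00000000700, chromosome C1, 23827977 to 23843998) had 26.9, 15.3 and 25.2 FPKM. It was thus lower in Feline ASC 2 than in the others, which lay close together. The partners of archease in the tRNA ligase complex that were in the rows read were not low in that culture: FAM98B had 13.3, 15.0 and 15.1 FPKM and C14orf166 had 212, 267 and 220 FPKM.

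The BTB group held 3 classical members, all above 1 FPKM in every culture. ZBTB47 was the highest, with 19.7, 18.7 and 22.4 FPKM and a mean of 20.3 ± 1.9 FPKM. ZBTB48, which binds telomere repeats and trims long telomeres, had 4.77, 6.04 and 4.32 FPKM. ZBTB46 (ENSFCAG00000001175, chromosome A3, 522992 to 558332), best known from classical dendritic cells and endothelial cells, had 2.35, 5.84 and 3.76 FPKM. Its 3 values were well apart, and Feline ASC 2 was 2.48 times Feline ASC 1. Of 4 dendritic and 5 endothelial markers on the fixed lists, 2 of each were in the rows read, and the others were not analysed here. Of the dendritic markers, CD1C was listed at 0 throughout. CD74 had 0.323, 0.397 and 0.285 FPKM, highest in Feline ASC 2 as ZBTB46 was but lowest in Feline ASC 3. Of the endothelial markers, TEK had 0.0129, 0.0564 and 0.0595 FPKM. FLT4 was above 1 FPKM in every culture, with 1.47, 1.66 and 2.02 FPKM. Both endothelial markers were lowest in Feline ASC 1 as ZBTB46 was, but highest in Feline ASC 3. How many fragments the CD74 and TEK values rest on is not known. The part of dendritic or endothelial cells in the ZBTB46 level was not tested. In bulk RNA more cells of a type cannot be told apart from more RNA per cell. Of the corepressor genes on the fixed list for BTB proteins, SIN3B had 17.4, 24.6 and 15.3 FPKM and TBL1XR1 had 31.6, 25.9 and 30.7 FPKM.

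The SCAN group, 3 ZSCAN genes and ZNF202, lay between 2.07 and 5.16 FPKM in mean. All 4 were highest in Feline ASC 2, in the case of ZSCAN29 by a margin too small to show. ZSCAN23 (ENSFCAG00000000244, chromosome B2) had 3.80, 7.84 and 3.83 FPKM, so that Feline ASC 2 stood at 2.06 times the lowest culture while the other 2 were nearly equal. Its locus was the shortest of the 28, at 944 bases from 1884621 to 1885565. ZSCAN20 had 3.36, 3.95 and 3.32 FPKM and ZSCAN29 had 2.96, 2.96 and 2.52 FPKM. ZNF202, which joins a SCAN to a KRAB domain and represses genes of lipid metabolism, had 1.53, 2.35 and 2.33 FPKM and was low in Feline ASC 1 only.

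The other 16 ZNF genes ran from 0 to 26.1 FPKM in mean, and 12 of them were at 1 FPKM or more in every culture. ZNF106, an RNA-binding protein with zinc fingers, led them with 25.0, 25.6 and 27.7 FPKM. ZNF511 followed with 12.9, 8.87 and 12.9 FPKM and, like ZBTB8OS, was lower in Feline ASC 2 than in the others. ZNF511 shares its locus in the table (chromosome D2, 89370915 to 89616726) with TUBGCP2 and a gene without a symbol, so how fragments were divided among them bears on its value. TUBGCP2 had 19.6, 21.5 and 19.9 FPKM and was not lower in Feline ASC 2. The gene without a symbol had 2.90, 0.790 and 7.11 FPKM and was lowest in Feline ASC 2.

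Next in level among these ZNF genes were ZNF652, ZNF512B, ZNF143 and ZNF292, with an SD of 4.22 to 11.3% of the mean. ZNF652, a repressor that works with the corepressor CBFA2T3, had 8.56, 9.31 and 8.93 FPKM, the smallest relative spread of all expressed members (SD 4.22% of the mean). ZNF143, which activates promoters of small nuclear RNA and many protein-coding genes, had 7.41, 7.44 and 8.14 FPKM. ZNF512B had 7.90, 9.58 and 8.13 FPKM and ZNF292 had 6.59, 7.47 and 5.98 FPKM. Neighbours in this order were not separated: each of these genes changed places in at least 1 culture with the next one in rank. Lower still, ZNF236 had 3.63, 3.85 and 3.30 FPKM. ZNF623 had 3.61, 4.44 and 3.89 FPKM in a locus that it shares with 4 other listed genes, which lay between 12.9 and 21.3 FPKM.

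Among the genes near the 1 FPKM limit, ZNF692 and ZNF672 are neighbours on chromosome A1, 586 bases apart. ZNF692 (83400722 to 83408721) had 2.36, 3.09 and 2.33 FPKM and was highest in Feline ASC 2. ZNF672 (83397741 to 83400136) had 2.0, 1.17 and 1.73 FPKM and was lowest in Feline ASC 2. The ratio of ZNF672 to ZNF692 was therefore 0.844, 0.377 and 0.742, a comparison chosen after the values had been seen. The KRAB genes ZNF26 and ZNF641 differed in order, with 2.77, 2.27 and 2.0 FPKM for ZNF26 and 1.64, 2.33 and 1.98 FPKM for ZNF641. From the list of KRAB corepressors and their partners only MORC3 was in the rows read, with 7.90, 9.38 and 6.95 FPKM.

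The 5 genes below 1 FPKM in every culture were GLI1, ZNF831, ZNF648, ZNF114 and ZNF385C. GLI1 (ENSFCAG00000002081, chromosome B4, 86213686 to 86221138), both an effector and a target of Hedgehog signalling, had 0.111, 0.0953 and 0.428 FPKM. Of the other Hedgehog genes on the fixed list, the coreceptor BOC had 15.8, 15.9 and 13.5 FPKM and the ligand DHH had 0.0504, 0.274 and 0.120 FPKM. ZNF831 had 0.0363, 0.00986 and 0.0286 FPKM. ZNF648 and ZNF114 had 0.0286 and 0.0194 FPKM in Feline ASC 1 and were listed at 0 in the other cultures, and ZNF385C was listed at 0 in all 3. How many fragments these values rest on is not known, and no difference between cultures is read from them.

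Across the 23 genes with a mean of at least 1 FPKM the cultures differed mostly in 1 direction in the FPKM as deposited. Feline ASC 2 had the highest value for 16 of 23 genes (69.6%), against 41.2% of the 11231 genes of the files at this level. Feline ASC 1 was highest for 4 and Feline ASC 3 for 3. The median difference of Feline ASC 2 from the mean of the other cultures was 0.19 on the log2(FPKM + 1) scale over the 23 genes and 0.016 over all genes. For Feline ASC 1 and 3 the medians over the 23 genes were -0.082 and -0.036. The count depended on how the libraries were scaled, because Feline ASC 2 had the largest summed FPKM. With each culture rescaled to an equal sum (TPM), Feline ASC 2 was highest for 11 of 23 genes, against 26.9% of all genes. It was lowest for 4 of 23 genes as deposited (all genes 37.0%) and for 8 of 23 under TPM (all genes 52.7%). The median over all genes lay at -0.11 under TPM, and the zinc finger genes stood 0.20 above it. They stood 0.18 above the median over all genes in the FPKM as deposited and 0.23 above it with quantile normalization. The 5 genes that lost their highest place under TPM were ZNF202, ZNF236, ZNF652, ZNFX1 and ZSCAN29. In the FPKM as deposited, Feline ASC 2 was also highest for 11 of 13 other zinc finger genes at this level and for 16 of 33 other transcription factors. Under TPM it was highest for 7 of 13 and 12 of 33.

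**Figure D3:**
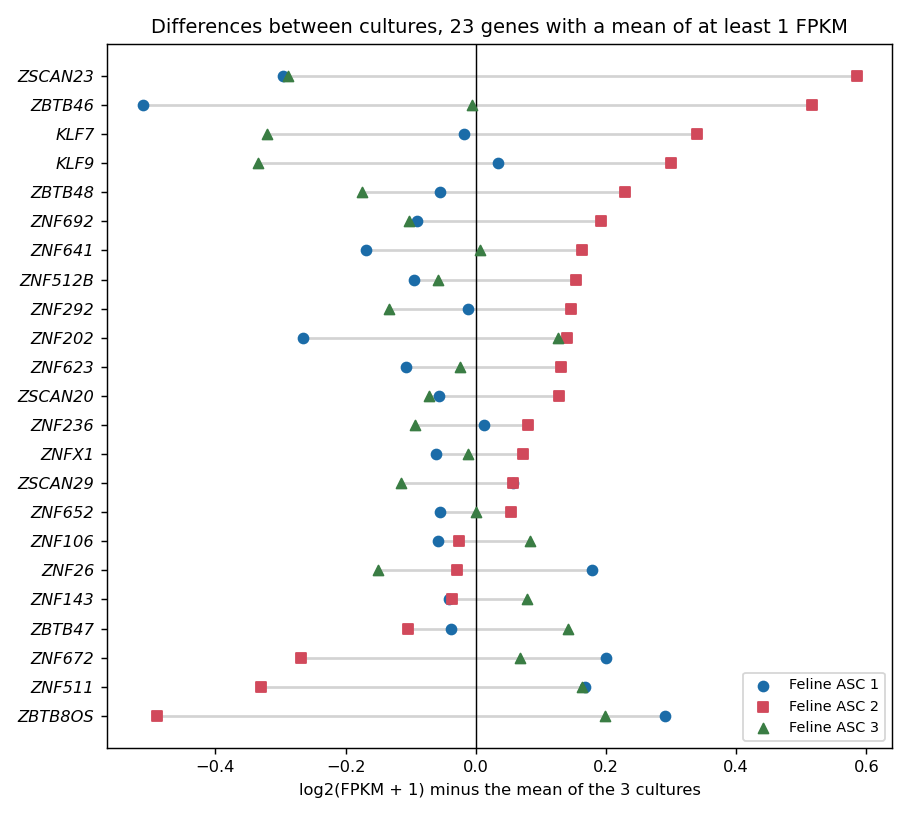
Value of each culture minus the mean of the 3 cultures, on the log2(FPKM + 1) scale, for the 23 genes with a mean of at least 1 FPKM, ordered by Feline ASC 2; each symbol is 1 library and grey lines join the lowest and highest. Feline ASC 2 (squares) lies at the right end for 16 genes and at the left end for 4, ZBTB47, ZNF672, ZNF511 and ZBTB8OS.

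Differences of 1.5-fold or more between the cultures with the highest and lowest FPKM + 1 were found for 5 of the 28 genes (17.9%), against 15.5% of all genes. Of the 23 genes with a mean of at least 1 FPKM the same 5 made up 21.7%, where the share over all such genes was 25.6%, and 26.6% over genes between 1 and 40 FPKM. The zinc finger genes were therefore near the background in this respect. The 5 were ZBTB46 (2.04-fold), ZSCAN23 (1.84-fold), ZBTB8OS (1.72-fold), KLF7 (1.58-fold) and KLF9 (1.55-fold). Only ZBTB46 reached 2-fold, 4.35% of the 23 genes against 10.7% of all such genes. Between pairs of cultures, 3 of 23 genes differed 1.5-fold for Feline ASC 1 and 2 (all genes 18.2%), 4 for Feline ASC 2 and 3 (all genes 18%) and 0 for Feline ASC 1 and 3 (all genes 8.04%). Each of the 5 differences thus involved Feline ASC 2, and without that culture none was left. Under TPM the 5 genes were ZBTB46, ZSCAN23 and ZBTB8OS with ZNF511 and ZNF672 in place of the KLF genes, which lay just under the threshold (KLF7 1.48-fold, KLF9 1.44-fold). With quantile normalization KLF7 (1.55-fold) was still past it, as 1 of 4 such genes among the 28. Of all genes 18.6% differed 1.5-fold or more under TPM and 15.4% with quantile normalization. The order of the cultures for both KLF genes was the same on all 3 scales.

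**Figure D4:**
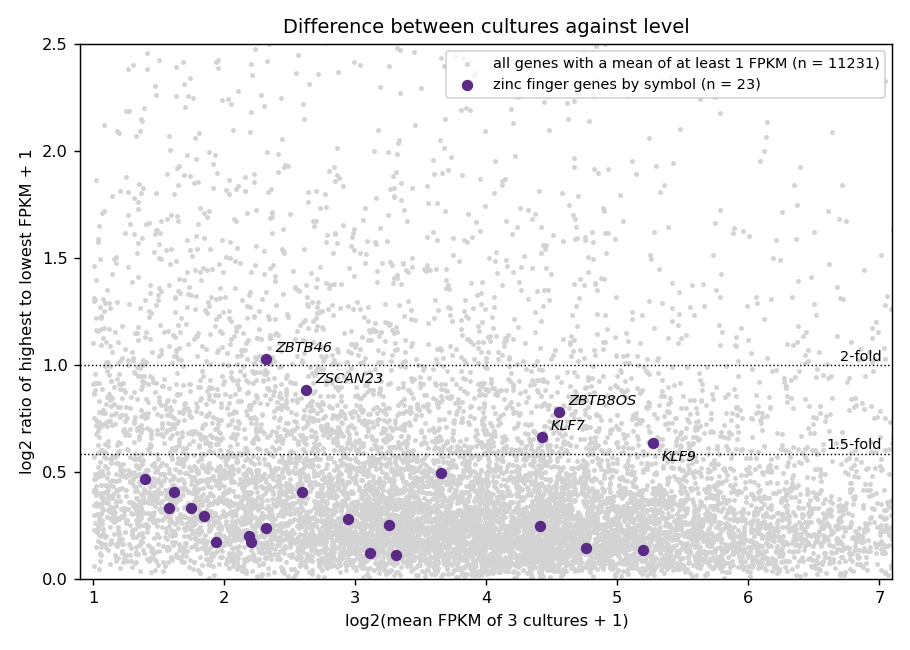
Log2 of the fold between the highest and lowest of the 3 cultures (FPKM + 1) against log2 of the mean FPKM + 1, for all genes with a mean of at least 1 FPKM (grey, 11231 genes, 781 of them beyond the axes) and the 23 zinc finger genes (purple). The 5 labelled genes lie above the 1.5-fold line, ZBTB46 alone lies above the 2-fold line, and the other 18 lie below both.

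Relative spread divided the 23 genes evenly. The SD was under 10% of the mean for 7 genes, from 10% to under 20% for 8 and 20% or more for 8, with a median of 16.5%. All genes with a mean of at least 1 FPKM had a median of 13.3% and the other transcription factors at this level 17.4%. Of all 65 other factors, with no limit on level, 17 (26.2%) differed 1.5-fold or more. The share without that limit was 17.9% for the 28 genes and 15.5% for all genes. NKX2-5, a homeobox gene, was listed at 0 in Feline ASC 1 and 3 and had 22.7 FPKM in Feline ASC 2. WT1, a zinc finger gene outside the symbol rule, had 0.163, 4.76 and 0.0474 FPKM. NR4A1, from the list of other factors, went the other way, with 19.6, 3.50 and 15.9 FPKM. These genes are named for their wide ratios. On the FPKM + 1 scale the widest ratio among the 28 was the 2.04-fold of ZBTB46.

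The 28 genes lay on 15 chromosomes, with 4 each on A3 and C1, and the table's loci spanned 944 to 245811 bases. RefSeq's annotation of the newer assembly F.catus_Fca126_mat1.0 listed 26 of the 28 symbols, all on the same chromosome. After ZNF672 and ZNF692 the closest members were ZNF512B and ZBTB46, 136330 bases apart on A3. Both were highest in Feline ASC 2, as were 16 of the 23 genes with a mean of at least 1 FPKM.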

How the data were processed

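The authors prepared stranded libraries from poly-adenylated RNA, used HISAT to align the reads to the cat assembly Felis Catus 8.0, and derived gene values with Cufflinks, taking the output of Cuffnorm as normalized. The deposited values are FPKM for 21529 genes, 1 file per culture. Versions, annotation release and Cuffnorm settings were not given in the sources used here. Symbols and positions came from the gene table published with the study, of which 1997 rows were read here and whose 3 value columns each equalled 1 file at all of these rows. Whether counting used strand was not stated, so overlapping genes are uncertain.

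Means, SDs, ratios of FPKM + 1 and log2(FPKM + 1) differences were computed with Python 3.11.15, pandas 2.3.3 and numpy 2.4.6, and plots with matplotlib 3.10.9. The code was tested on simulated data. No filter on low values was used except where a mean of at least 1 FPKM is stated. Every gene that met the symbol rule is named. Others are named from gene lists written with the design, or because they share a locus with a member. The genes and lists were chosen with earlier results of these data known. Alternatives were TPM, quantile normalization, other pseudocounts and thresholds, fewer members and leaving out each culture.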

Additional observations from a re-analysis of the deposited data

How the results depend on the processing

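Of 70 values recomputed under alternatives, 62 stayed within the spread between cultures or within 1.5 times. These limits are wide. For the median differences between cultures the spread was their own SD of 0.15, near the 0.19 of Feline ASC 2. Its fall to 0.097 under TPM was thus counted as within the spread. The median level of the 28 genes rose from 3.98 FPKM to 6.09 on the TPM scale, which multiplies every value, and to 5.16 FPKM when genes with a mean under 1 FPKM were dropped. The 5 genes that differed 1.5-fold or more became 8 with a pseudocount of 0.1, when GLI1, ZNF202 and ZNF672 joined the 5. The share over all genes rose likewise, from 15.5% to 28.7%. With a 2-fold threshold 1 of the 28 genes was left, against 6.14% of all genes. Leaving out 1 culture gave 0 to 4 genes, with 0 without Feline ASC 2. Over all genes the share was 10.7% without Feline ASC 1, 5.03% without Feline ASC 2 and 10.9% without Feline ASC 3. Leaving out 1 culture gave a median relative spread of 6.92 to 14.2%, the lowest without Feline ASC 2. The median difference of Feline ASC 1 from the other cultures was -0.16 to 0.0046 when 1 of them was left out, positive only without Feline ASC 2. The counts at 1 and 15 FPKM did not move beyond 1.5 times under any alternative run, and the direction of the Feline ASC 2 difference was kept in all those run. The counts of genes highest in Feline ASC 2 under other scales, and the range of 1 to 40 FPKM, were alternatives chosen after seeing the data. No paired analysis was possible because the 3 cultures form a single group. Fragments per gene are not known, which limits most the 5 genes below 1 FPKM.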
